A study of Arabidopsis thaliana with 12 samples.

Results

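EXPA21, EXLA1, EXLA3, XTH16 and XTH19 encode wall proteins, and their RNA was measured in the early embryo of Arabidopsis thaliana. They were taken as the probe sets matched to exactly 1 gene with 1 of these symbols, which gave 5 genes of the 13356 that have a probe set of their own among 22746 non-control probe sets of the Affymetrix ATH1 array, a chip that reads each transcript with a set of short oligonucleotides. The study holds 12 arrays in 4 groups of 3, all from accession Col-0. Whole-embryo cells are cellular RNA of embryos with 8 to 32 cells that were pressed from ovules and washed, with RNA prepared by PicoPure kit. Suspensor nuclei, proembryo nuclei and whole-embryo nuclei came from embryos with 2 to 16 cells in ovules fixed with 0.1% paraformaldehyde, and were sorted by flow cytometry from tissue-specific marker lines. The labels do not name the marker genes of those lines. All plants grew under 16 h light and 8 h dark. Stage, fixation and extraction all differ between cells and nuclei, so their effects cannot be told apart. The titles call the replicates biological without saying what was separate, so the p-values here cover only the spread among the arrays, which may be technical.

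The growing plant cell wall is a network of cellulose microfibrils and xyloglucan, a hemicellulose, set in pectin. Alpha-expansins (EXPA) loosen that network at acid pH without cutting it. Expansin-like A proteins (EXLA) have the expansin domain layout, but wall-loosening activity has not been established for them. Xyloglucan endotransglucosylase/hydrolases (XTH) cut xyloglucan chains and rejoin them or hydrolyse them. In the early embryo the suspensor, a file of cells that joins the embryo to the mother tissue, elongates, while the proembryo divides into the cells that form most of the plant.

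The members were chosen by measured values. They come from the listed expansin and XTH genes that have a symbol and passed the filter on low values. Among these they have the 5 smallest limma p-values between whole-embryo cells and whole-embryo nuclei. The 4 of them that could be compared between suspensor and proembryo nuclei also had the smallest p-values of the listed genes kept there. With every probe set kept, EXPA16 and EXPB2 came before EXLA3 there, and EXLA2 came before XTH19 between cells and nuclei. At the edge between cells and nuclei stood EXLA1, with a log2 difference of -1.38 (SE 0.458), just inside, and EXPA20, with -1.24 (SE 0.496), just outside. At the edge between suspensor and proembryo nuclei stood EXPA21, with 0.42 (SE 0.477), inside, and EXPB3, with -0.27 (SE 0.433), outside. Differences of the members are therefore given as a description, with their standard error and no test.

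Values are the authors' scaled intensities, and each array's median lay between 72.7 and 103. Differences are log2 differences of intensity + 16, the first named group minus the second, which understate the change of dim genes. The arrays differed in ways that bear on the results. Correlations with another array of the same group were lowest between whole-embryo cell replicates 1 and 3 among the cell arrays (0.868) and between suspensor replicates 2 and 3 among the nuclear arrays (0.843). The 25S ribosomal RNA probe set read 8193 to 10349 on the cell arrays and 19919 to 23439 on those of whole-embryo nuclei. Of the marker genes listed, probe sets were named for 2 of 14 of the embryo, 3 of 9 of the endosperm and 2 of 13 of the seed coat, and none of these was listed at 0. The embryo markers BBM and PHV summed to 343 to 912 in cells, 173 to 312 in suspensor nuclei, 248 to 632 in proembryo nuclei and 227 to 488 in whole-embryo nuclei. The endosperm markers AGL62, AGL80 and IKU2 summed to 239 to 258 in cells, 227 to 387 in suspensor nuclei, 149 to 227 in proembryo nuclei and 165 to 227 in whole-embryo nuclei. The seed coat markers BAN and DFR, enzymes of tannin synthesis, summed to 6331 to 20823 in cells, 9632 to 13769 in suspensor nuclei, 6745 to 10448 in proembryo nuclei and 8952 to 10231 in whole-embryo nuclei. BAN and DFR are genes of the mother's seed coat, a tissue that the labels name for no group, and their part in the results was not tested. In bulk RNA, fewer cells of a type and less RNA per cell cannot be told apart.

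EXPA21 (AT5G39260, probe set 249500_at), an alpha-expansin, was far higher in the cellular RNA than in any nuclear sample. It read 2279.6, 1597 and 1664 in whole-embryo cells. It read 94.7, 140.1 and 115 in suspensor nuclei, 45.4, 126 and 91.5 in proembryo nuclei, and 40.1, 193 and 140.2 in whole-embryo nuclei. The lowest cell array stood 8.28 times above the highest of the 9 nuclear arrays, so the cells did not overlap any nuclear group. Mean intensities (± SD, n = 3 each) were 1847 ± 376 in cells and 124 ± 77.6 in whole-embryo nuclei, a ratio of 14.8. On the log2 scale the difference was 3.91 (SE 0.423, 95% interval 2.98 to 4.84), or 15.0-fold. Leaving out each of the 6 arrays in turn gave 3.35 to 4.30. Cell replicate 1 was highest for both EXPA21 and BAN (16697), while replicate 3, at 1664, lay above replicate 2, at 1597, with BAN at 4780.1 against 14380. The part of seed coat RNA was not tested.

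Among nuclei, the EXPA21 values of the groups overlapped. On the log2 scale (mean ± SD, n = 3 each) EXPA21 stood at 7.04 ± 0.248 in suspensor nuclei and 6.61 ± 0.616 in proembryo nuclei. The difference was 0.42 (SE 0.477, 95% interval -0.58 to 1.43), and 0.09 to 0.69 with each nuclear array left out in turn. Whole-embryo nuclei, at 6.93 ± 0.996, varied most, because replicate 1 read 40.1 against 193 and 140.2 on the others. The order of the 3 nuclear groups is thus within their spread, and with arrays centred on their medians suspensor and whole-embryo nuclei traded places.

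**Figure D1:**
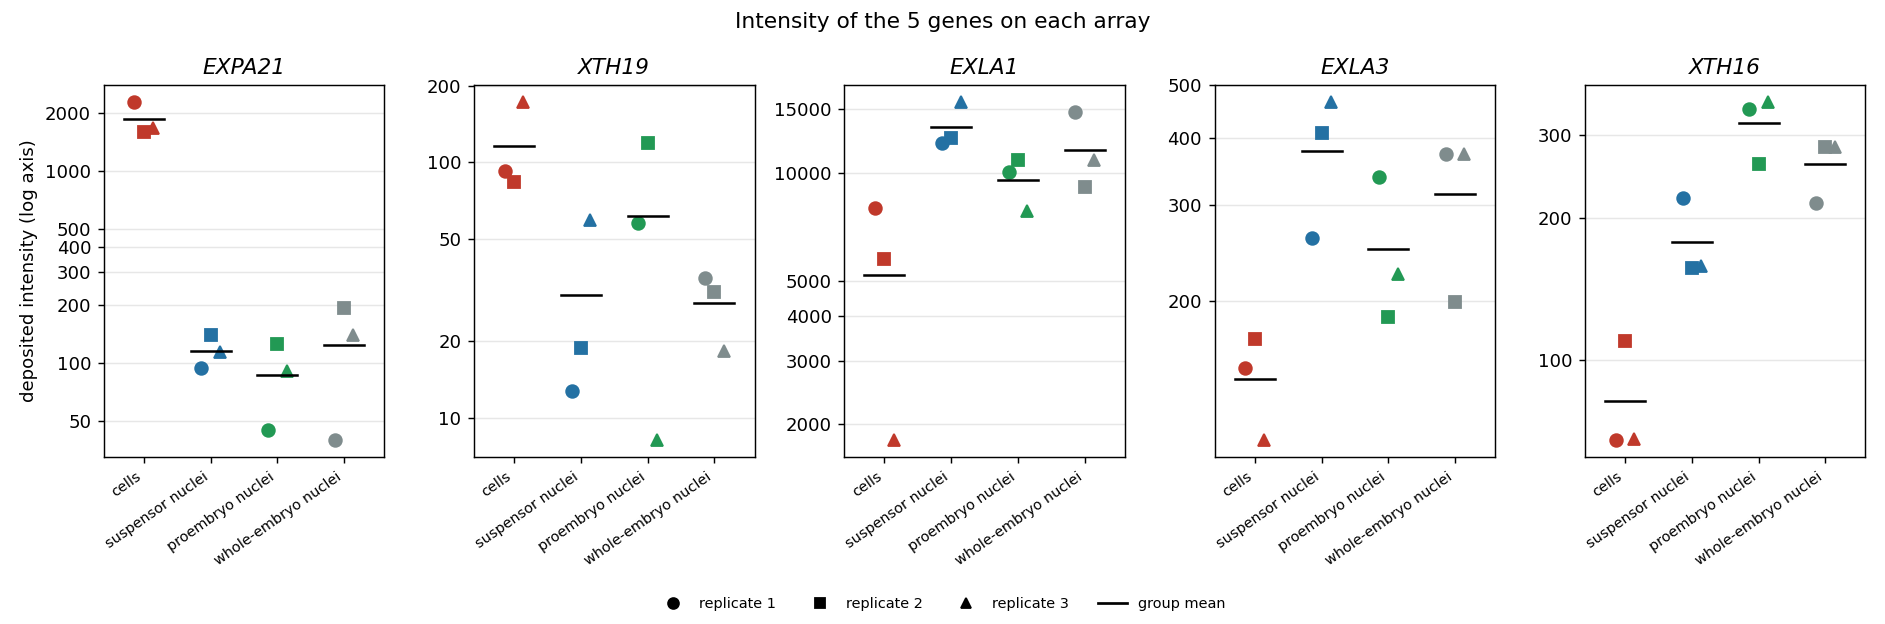
Deposited intensity (log axis) of EXPA21, XTH19, EXLA1, EXLA3 and XTH16 on each of the 12 arrays, by group, with 1 marker per replicate and a bar at the group mean. EXPA21 lies between 1597 and 2279.6 in the 3 cell arrays and at 193 or below in all 9 nuclear arrays, and EXLA3 and XTH16 are lower on every cell array than on any nuclear array.

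EXLA1 (AT3G45970, probe set 252563_at) was bright in every sample and dimmer in the cells. It read 8006, 5744 and 1811 in whole-embryo cells. It read 12073, 12529.5 and 15752 in suspensor nuclei, 10058, 10837 and 7817 in proembryo nuclei, and 14792, 9162 and 10826 in whole-embryo nuclei. Cell replicate 3 was the lowest of all 12 arrays, while cell replicate 1 lay above proembryo replicate 3. Cells and whole-embryo nuclei did not overlap. Mean intensities (± SD, n = 3 each) were 5187 ± 3135 in cells and 11593 ± 2892 in whole-embryo nuclei.

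The log2 difference between cells and nuclei was -1.38 (SE 0.458, 95% interval -2.38 to -0.37), and EXLA1 was lower in all 3 cell arrays than in any array of whole-embryo nuclei. It was -1.81 without cell replicate 1. Without cell replicate 3 the difference was -0.74 (SE 0.268), so this array carries much of its size. The same array was low for both seed coat markers: BAN read 16697, 14380 and 4780.1 and DFR 4126, 3951 and 1551 on cell replicates 1, 2 and 3. EXLA1 and both markers thus stood in the same order over these 3 arrays, while BBM stood in the opposite order, at 186, 288 and 660.1. In no nuclear group did EXLA1 stand in the order of BAN or of DFR. On whole-embryo nuclei replicates 1, 2 and 3 EXLA1 read 14792, 9162 and 10826, and BAN 6403, 7493 and 7348. Mean BAN and DFR were higher in cells (11952 and 3209) than in whole-embryo nuclei (7081 and 2470), whereas EXLA1 was lower in cells. The part of seed coat RNA in the level of EXLA1 was not tested.

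**Figure D2:**
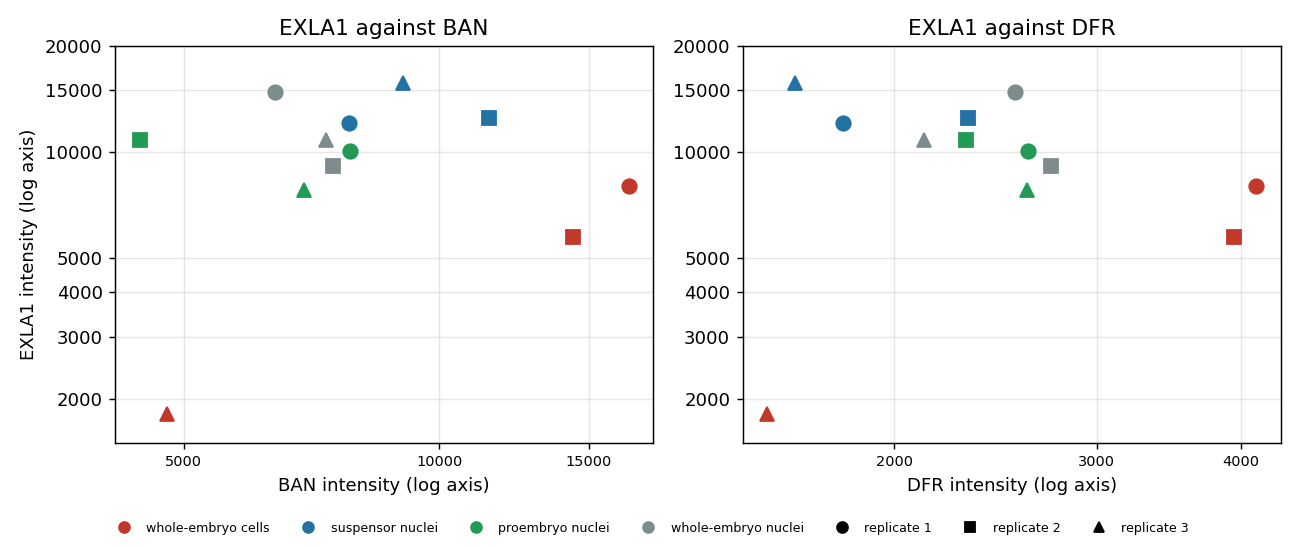
EXLA1 intensity against that of BAN (left) and DFR (right) on each array, both axes logarithmic, with colour for the group and marker shape for the replicate. Whole-embryo cell replicate 3 is lowest for EXLA1 (1811) and for DFR (1551) and low for BAN (4780.1), and among the 9 nuclear arrays EXLA1 lies between 7817 and 15752.

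Among nuclei EXLA1 had its highest mean in the suspensor. Log2 means (± SD, n = 3 each) were 13.71 ± 0.208 in suspensor nuclei and 13.21 ± 0.247 in proembryo nuclei, and the arrays did not overlap. The difference was 0.49 (SE 0.236), or 1.41-fold. Against whole-embryo nuclei, at 13.47 ± 0.350, the difference was 0.23 (SE 0.236) for suspensor nuclei and -0.26 (SE 0.236) for proembryo nuclei, with overlapping arrays in both cases. The whole-embryo mean lay between those of the lineages.

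EXLA3 (AT3G45960, probe set 252557_at) is the next protein-coding gene to EXLA1 in the TAIR10.1 gene order, with 0 genes between them. It read 151, 170.5 and 111 in whole-embryo cells. It read 262, 407 and 465 in suspensor nuclei, 338 in proembryo replicate 1, 187 in replicate 2 and 225 in replicate 3, and 374, 199 and 373 in whole-embryo nuclei. All 3 cell arrays lay below all 9 nuclear arrays, whose lowest value was 187. The difference between cells (7.30 ± 0.284 log2 units, SD, n = 3) and whole-embryo nuclei (8.32 ± 0.493, SD, n = 3) was -1.02 (SE 0.304).

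In the nuclei EXLA3 had the same order of group means as EXLA1, suspensor, then whole embryo, then proembryo. Log2 means (± SD, n = 3 each) were 8.58 ± 0.416 in suspensor nuclei and 8.01 ± 0.412 in proembryo nuclei, a difference of 0.57 (SE 0.323), and the arrays overlapped. On the 3 suspensor arrays the values of 262, 407 and 465 stood beside mean hybridisation control signals of 11.41, 13.00 and 13.89 log2 units. On proembryo replicates 1, 2 and 3, values of 338, 187 and 225 stood beside signals of 12.13, 12.65 and 11.67. On those of whole-embryo nuclei, 374, 199 and 373 stood beside 12.32, 11.84 and 12.95. EXLA1 stood in the order of these signals on the suspensor and the proembryo arrays, but not on those of whole-embryo nuclei. The part of the control signal in the spread of either gene was not tested. Neighbouring nuclear groups were less than their larger SD apart for EXLA3, at 0.26 between suspensor and whole-embryo nuclei and 0.31 between whole-embryo and proembryo nuclei. The first of these turned to -0.02 without whole-embryo nuclei replicate 2.

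XTH16 (AT3G23730, probe set 257203_at), a xyloglucan endotransglucosylase/hydrolase, ran the other way among nuclei: its mean was lowest in the suspensor and highest in the proembryo. It read 221, 157 and 158 in suspensor nuclei, 341, 261 and 353 in proembryo nuclei, and 215, 284 and 284 in whole-embryo nuclei. Suspensor and proembryo arrays did not overlap, whereas the highest suspensor array lay just above the lowest whole-embryo one. Proembryo and whole-embryo arrays overlapped as well. Log2 means (± SD, n = 3 each) were 7.59 ± 0.259 in suspensor nuclei and 8.37 ± 0.226 in proembryo nuclei, a difference of -0.79 (SE 0.275). Leaving out each of the 9 nuclear arrays in turn gave -0.94 to -0.71. Against whole-embryo nuclei (8.10 ± 0.217) the difference was -0.51 (SE 0.275) for suspensor nuclei and 0.27 (SE 0.275) for proembryo nuclei.

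In whole-embryo cells XTH16 read 67.8, 109.8 and 68.1, below each of the 9 nuclear arrays, whose lowest value was 157. It lay above its array's median on 1 of 3 cell arrays and on 3 of 3 arrays of whole-embryo nuclei. It thus passed the filter on low values for this comparison through the nuclei, where it is high. The log2 mean (± SD, n = 3) was 6.59 ± 0.337 in cells, against 8.10 ± 0.217 in whole-embryo nuclei, a difference of -1.52 (SE 0.283), with cells 2.86-fold lower. It was -1.42 without cell replicate 3, so the array that was low for EXLA1 did not carry this difference.

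XTH19 (AT4G30290, probe set 253608_at), of the same enzyme family and known for a role in the healing of cut Arabidopsis stems, was dim. It read 92.4, 84.2 and 173 in whole-embryo cells. It read 12.7, 18.9 and 59.6 in suspensor nuclei, 57.8, 119 and 8.22 in proembryo nuclei, and 35.4, 31.3 and 18.3 in whole-embryo nuclei. Proembryo replicate 2 lay among the cell values and replicate 3 was the lowest of all, so cells overlapped proembryo nuclei and no order among the nuclear groups exceeds their spread. XTH19 lay above its array's median on all 3 cell arrays and on 0 of 3 arrays of whole-embryo nuclei. It passed the filter on low values for that comparison only through the cells, and had to differ: the difference was 1.54 (SE 0.438), with log2 means (± SD, n = 3 each) of 6.99 ± 0.498 in cells and 5.45 ± 0.309 in whole-embryo nuclei. It did not pass the filter in the nuclear fit. Cell replicate 3, the highest for XTH19, is the array that was lowest for EXLA1.

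Between whole-embryo cells and whole-embryo nuclei the groups' arrays did not overlap for all 5 genes, where 28.6% of the 11867 probe sets kept did not overlap. By limma 2 of the 5 were past the adjusted threshold of 0.05, EXPA21 higher and XTH16 lower, where 6.77% of all probe sets were (2.71% higher and 4.05% lower in cells). Without whole-embryo nuclei replicate 2 or 3, XTH16 was no longer past it. Since this comparison helped choose the genes, nothing is read from these counts. Centring arrays on their medians moved each member's difference between cells and nuclei by 0.13 log2 units and turned no member's direction, but it changed the split of all calls between cells and nuclei from 322 higher and 481 lower to 432 higher of 789. Between suspensor and proembryo nuclei 4 members passed the filter and 0 were past the threshold, against 2.03% of 12787 probe sets (0.696% higher and 1.34% lower in the suspensor). The arrays of these groups did not overlap for EXLA1 and XTH16, where 19.3% of all probe sets did not overlap. Limma put 1 of them, XTH16, at an unadjusted p under 0.05, as it did 16% of all probe sets. These members had the smallest p-values of the listed genes kept in this comparison, so nothing is read from these counts either.

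**Figure D3:**
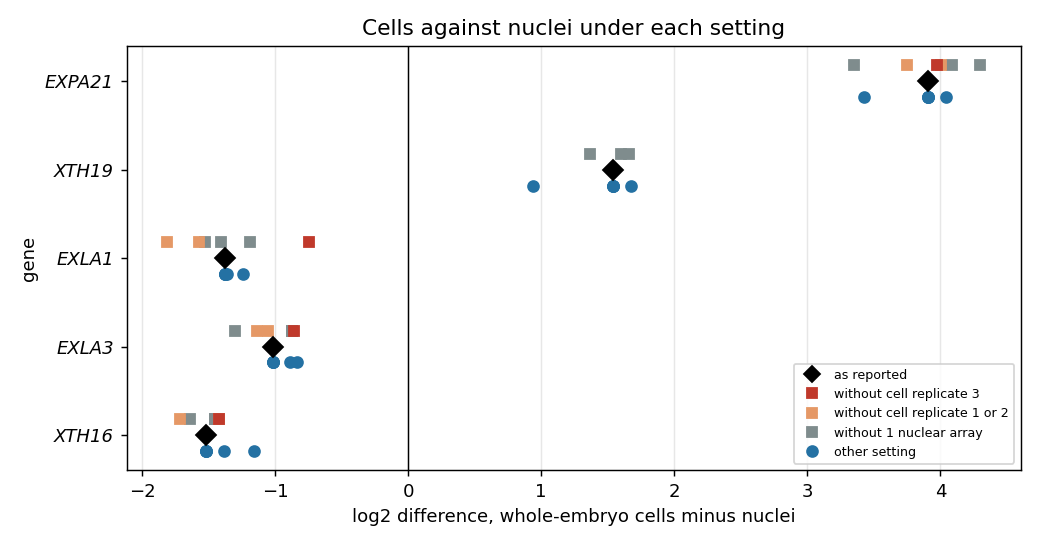
Log2 difference of whole-embryo cells minus whole-embryo nuclei for each of the 5 genes, as reported (diamond), with 1 array left out (squares) and under other settings (circles). EXPA21 stays between 3.35 and 4.30, EXLA1 moves to -0.74 without cell replicate 3, and XTH19 has no value without any 1 of the cell arrays because it then fails the filter.

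Whole-embryo nuclei had a mean between those of suspensor and proembryo nuclei for all 5 genes, as did 42% of the 12787 probe sets. All members but XTH19 had the smallest p-values of the listed genes kept between suspensor and proembryo nuclei, so nothing is read from this count. The whole-embryo mean no longer lay between the lineage means for XTH19 with a pseudocount of 64 or for EXPA21 with arrays centred on their medians. The distance from the proembryo to the suspensor mean was covered to a fraction of 0.528 for EXLA1, 0.537 for EXLA3 and 0.345 for XTH16. For EXPA21 and XTH19 the lineage means differ by less than the SD of proembryo nuclei, and the fraction has no use. Over the 9 nuclear arrays the log2 values of EXLA1 and EXLA3 correlated at a Pearson r of 0.704 (Spearman rho 0.717), and those of EXLA1 and XTH16 at -0.846 (rho -0.933). After each group's mean was taken away, r was 0.546 and -0.750. The other pairs of members then ran from -0.666 (XTH16 and XTH19) to 0.704 (EXLA1 and XTH19), so EXLA1 and EXLA3 did not stand out. The points of each pair share arrays, and so scaling and RNA quality, and these values describe the 9 arrays only.

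The wider list of expansin and XTH genes holds 29 genes with a probe set of their own, 19 expansin and 10 XTH genes, 5 of them the members. Only 13 passed the filter in at least 1 fit, and the other 16 never read above 110.6 on any array. Among these dim genes are EXPA7 and EXPA18, expansins of root hairs, which reached 42.2 and 53.0 at most, and XTH33, a membrane-anchored XTH, which reached 98.6. XTH18, which lies next to XTH19 with 0 genes between them, stayed at or below 46.8, and EXPA24, with 4 genes between it and EXPA21, at or below 50.8. The high cell value of EXPA21 therefore had no counterpart in EXPA24, which read 38.8 at most in cells.

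Of the listed genes that are not members, 6 were kept between cells and nuclei. The locus AT4G30380, annotated with the synonym EXLB2, read 38.3, 27.8 and 50.6 in cells and 102, 167 and 124 in whole-embryo nuclei, and the groups did not overlap. It passed the filter only through the nuclei, where it is high, and had to differ, so the difference of -1.42 (SE 0.374) is a description. The third expansin-like A gene, EXLA2, failed the filter in this comparison, and read 12.3, 4.25 and 5.92 in cells against 41.8, 89.5 and 115 in whole-embryo nuclei. With every probe set kept, the difference for EXLA2 was -2.00 (SE 0.425, limma adjusted p = 0.0445) and that for AT4G30380 -1.42 (SE 0.379, adjusted p = 0.0908). The members EXLA1 and EXLA3 had lower means in cells as well, but this comparison helped choose them, so nothing is read from that.

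The other 5 of the 6 were not past the threshold by limma between cells and nuclei. EXPA20 read 127, 29.4 and 41.7 in cells and 293, 92.9 and 132 in whole-embryo nuclei, and EXLB1 differed by -0.79 (SE 0.475). EXGT-A3, an XTH needed for normal vein cells in leaves, read 2162, 1775 and 644 in cells and 1628, 1756 and 1497 in whole-embryo nuclei, with cell replicate 3 low again. EXPA9 differed by -0.50 (SE 0.381) and EXPA15 by 0.28 (SE 0.385). Over the 11 listed genes kept, 8 were lower in cells and the median difference was -0.79, against 0.0056 over all probe sets kept. The 5 members, which this comparison helped choose, are among the 11, and the median of the other 6 was -0.64. These 6 include AT4G30380, which had to differ. With every probe set kept, the median was -0.26 over all 29 genes, against -0.06 over all probe sets. Leaving out 1 array at a time gave list medians of -1.14 to -0.55.

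Within the nuclei no listed gene was called. Of 12 kept, 0 were past the threshold by limma in each of the 3 nuclear comparisons, against 2.03% of all probe sets between suspensor and proembryo nuclei, 1.56% between suspensor and whole-embryo nuclei (0.594% higher and 0.962% lower in the suspensor), and 0% between proembryo and whole-embryo nuclei. Of the 4 members kept, the arrays of 0 were apart in either comparison with whole-embryo nuclei, where 18.9% of all probe sets were apart for the suspensor and 8.23% for the proembryo. An unadjusted p under 0.05 was reached by 1 gene, XTH16, in the first and by 0 in the others, against 16%, 14.3% and 3.14% of all probe sets. The median difference between suspensor and proembryo nuclei was 0.18 over the 12 genes, 8 of them higher, and turned to -0.0101 without suspensor replicate 3. After XTH16, EXLA1, EXLA3 and EXPA21, the genes with the smallest p were EXPB3 (-0.27, SE 0.433) and EXLA2 (0.28, SE 0.454).

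**Figure D4:**
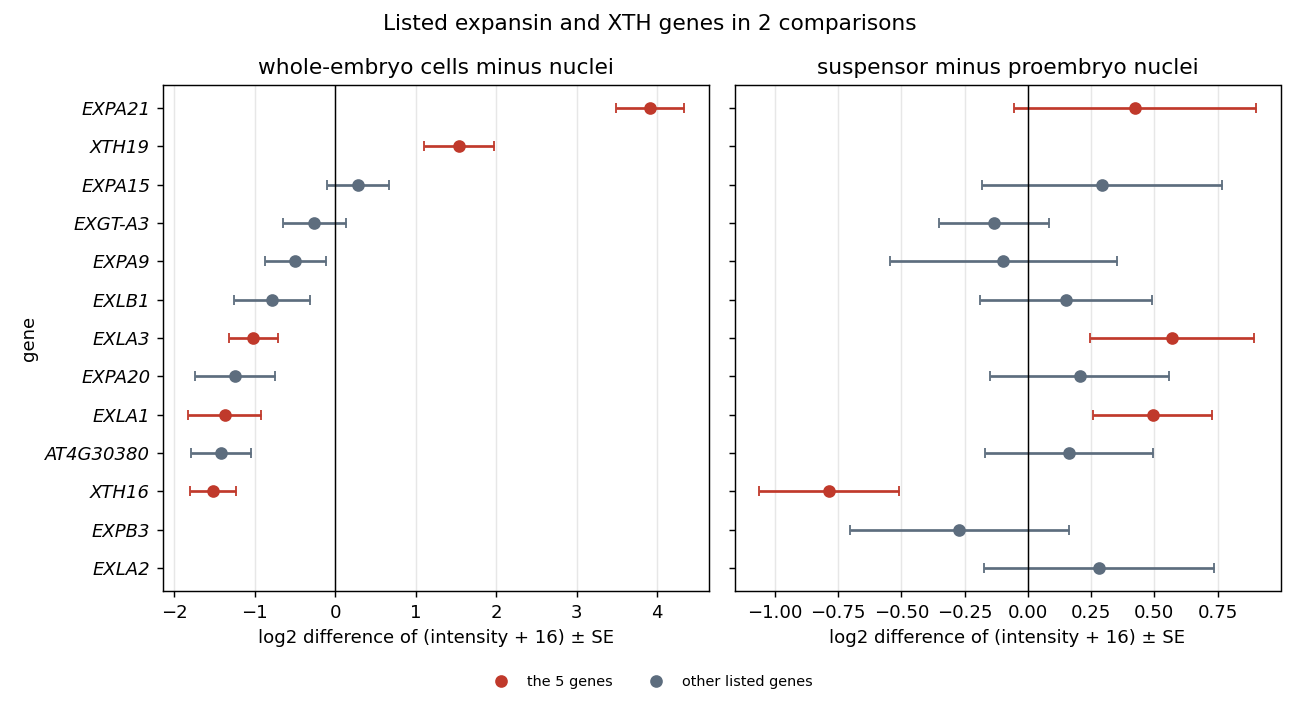
Log2 difference of intensity + 16, with its SE as a bar, for the expansin and XTH genes that passed the filter, in whole-embryo cells minus nuclei (left) and suspensor minus proembryo nuclei (right). The 5 genes are in red and the other listed genes in grey, a missing point marks a gene that did not pass that fit, and the horizontal scales differ: EXPA21 stands at 3.91 on the left, while on the right the values lie between -0.79 and 0.57.

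Other wall lists give the setting. Wall O-acetylation genes of the TBL family had 24 probe sets, of which 19 passed the filter in the nuclear fit. TBL38 alone was past the threshold, with 1.50 (SE 0.281, limma adjusted p = 0.0127) between suspensor and proembryo nuclei. It stood at 1.60 (SE 0.281, limma adjusted p = 0.00987) between suspensor and whole-embryo nuclei, and these comparisons share the suspensor arrays. In them 2.03% and 1.56% of all probe sets were past the threshold (0.696% and 0.594% higher in the suspensor). TBL15 (1.25, SE 0.358) and TBL39 (-0.97, SE 0.282) followed between suspensor and proembryo nuclei and were not past it. Between cells and nuclei 1 of 18 probe sets fell, against 4.05% of all, that of AT2G31110, annotated as TBL40, with -2.40 (SE 0.409, limma adjusted p = 0.0062) against -0.71 (SE 0.522, adjusted p = 0.443) on the gene's other probe set.

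Of 6 kept genes of cellulose and hemicellulose synthesis, 0 were past the threshold by limma in each of the 4 comparisons. Between cells and nuclei CSLD2, of cellulose synthase-like family D, differed by -0.73 (SE 0.245) and CSLC04, of the family that makes the xyloglucan backbone, by -0.67 (SE 0.273), both with an unadjusted p under 0.05 (0.0118 and 0.0318), as had 23.9% of all probe sets, and an adjusted p of 0.0972 and 0.166. Between suspensor and proembryo nuclei the 2 genes of this list with the smallest p were ATCSLC08 (0.31, SE 0.444) and CSLC5 (-0.18, SE 0.322). Of 3 kept pectin genes 0 were past it: PME61, a pectin methylesterase, differed by -0.76 (SE 0.379, adjusted p = 0.248) and AT4G02300 by 0.85 (SE 0.321, adjusted p = 0.134) between cells and nuclei. The 1 kept peroxidase, PRXR1, stood at -0.84 (SE 0.405, adjusted p = 0.232), and the 1 kept galactosidase, BGAL16, at 0.22 (SE 0.298, adjusted p = 0.701). No proton pump, aquaporin or arabinogalactan protein gene of the lists had a named probe set here.

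The genes with the most similar pattern were sought among 1579 probe sets with a symbol, by the root mean square (RMS) difference between log2 profiles over the 12 arrays, each centred on its own mean. The EXPA21 profile has an RMS of 1.80 around its mean, the largest of the members. The Pearson r of EXPA21 with its nearest gene was 0.912 over the 12 arrays. SWEET9, a sucrose transporter of nectaries, was nearest at 0.83, with 716 in cells against 80.1 in whole-embryo nuclei. TET10, a tetraspanin, followed at 0.88 (904 against 134), and SK16 at 0.90 (465 against 27.8). For EXLA1, with an RMS of 0.79, the nearest were CYP71B6, a cytochrome P450, at 0.25, GLC at 0.25 and GH9B5, of glycosyl hydrolase family 9, at 0.26. For EXLA3 (RMS 0.58) they were AMY1, an alpha-amylase, at 0.17, RALFL31, a secreted RALF-like peptide, at 0.29 and SWEET1, a glucose transporter, at 0.29. AMY1 averaged 155 in cells, 377 in suspensor nuclei, 222 in proembryo nuclei and 274 in whole-embryo nuclei. XTH16 (RMS 0.72) had TKL at 0.31, RALFL24, another RALF-like peptide gene, at 0.36 and BGLU33, a beta-glucosidase, at 0.37. RALFL24 and XTH16 have 7 protein-coding genes between them. XTH19 (RMS 0.91) had UBP27 at 0.50, iqd32 at 0.56 and POLA3 at 0.58, of which UBP27 averaged 40.5 in cells and 6.06 in whole-embryo nuclei.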

How the data were processed

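The authors' deposited file gives 1 linear intensity value per probe set and array. MAS5 and affy 1.32.1 are named, per the submitters' processing notes, without saying which step used which; the sources used here give no further step. The mean after trimming 2% from each end was 200.02 on every array, so the scaling was kept. No detection calls were used, and 3 arrays per group limit the precision.

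Probe sets were named from the platform annotation, with symbols updated by gene identifier from a TAIR10.1 gene table, used only for names and gene order; 13513 had 1 gene, 503 several, and 8730 are unnamed here. Probe sets above their array's median in at least 3 arrays were tested on log2(intensity + 16) with limma 3.58.1 in R 4.3.3 (eBayes with an intensity trend, Benjamini-Hochberg over all kept, threshold 0.05), in a fit of the 9 nuclear arrays or of the 6 whole-embryo arrays; the procedure was tested on simulated data. Names and plots were made in Python 3.11.15 with pandas 2.3.3 and matplotlib 3.10.9.

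The members and lists were chosen with earlier results of these data known. The naming rule covers the members, all listed expansin and XTH genes, in other wall lists the genes past the threshold or the 2 with the smallest p, and 3 nearest profiles per member. EXPA24, XTH18, XTH33, EXPA7 and EXPA18 were picked from the list after their values were seen. Alternatives were another pseudocount (64), no filter, median centring, a replicate block, no trend, all 12 arrays in the fit and leaving out each array.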

Additional observations from a re-analysis of the deposited data

How the results depend on the processing

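The members' differences between cells and nuclei are descriptions; over 12 other settings they ran from 3.35 to 4.30 for EXPA21 and from -1.71 to -1.16 for XTH16. With a pseudocount of 64, XTH16 stood at -1.16 and XTH19 at 0.94, and the span of the XTH16 group means was 1.39 (1.79 with 16). The EXLA1 difference ranged from -1.81 to -0.74 with 1 array left out. Of 237 refitted member differences 231 kept their sign; the 6 that turned were EXPA21 or EXLA3 against whole-embryo nuclei, none past the threshold. The list count between cells and nuclei was 3 of 11 genes kept, where 6.77% of all probe sets were past the threshold. This comparison helped choose EXPA21 and XTH16, and AT4G30380 passed the filter only through the nuclei, so nothing is read from the count. It was 5 with all 12 arrays and 1 to 4 with 1 array left out. It was 1, EXPA21, without whole-embryo nuclei replicate 2 or 3, and 4 without cell replicate 1.

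Counts over all probe sets moved more. Between suspensor and proembryo nuclei 260 became 167 without the filter, 62 with median centring, 17 without the trend, 141 with all 12 arrays and 85 (without proembryo replicate 3) to 421 (without suspensor replicate 1) with 1 array left out. Between suspensor and whole-embryo nuclei 199 became 104, 49, 9, 55 and 27 to 309 under the same settings. Between cells and nuclei 803 became 462 without the filter and 205 (without whole-embryo nuclei replicate 1) to 1287 (without cell replicate 1) with 1 array left out, and between proembryo and whole-embryo nuclei the count was 0 to 1. The causes were not tested.

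Replicate numbers were not used to pair the arrays: same-numbered arrays of suspensor and proembryo nuclei deviated together at 0.064, -0.0045 and -0.074. For suspensor and whole-embryo nuclei the values were -0.013, 0.063 and 0.099. There 2 of 3 arrays matched best with their own number, against 0 or 1 of 3 in the other comparisons. With 3 arrays per group these values cannot show that no pairing exists. With the replicate block the counts were 285, 203, 0 and 774, in the order suspensor against proembryo, suspensor and proembryo against whole-embryo nuclei, and cells against nuclei; 2 listed genes passed in the last, without AT4G30380. Each member has 1 probe set, so no other probe set could be tried. Intensities near or below the array medians, as for XTH19, limit what can be read.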
